A study of Mus musculus with 6 samples.

Results

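The synaptonemal complex and meiotic cohesin genes examined here are 10 genes, *Sycp1*, *Sycp2*, *Sycp3*, *Syce1*, *Syce2*, *Hormad1*, *Hormad2*, *Stag3*, *Smc1b* and *Rec8*, which encode proteins of the meiotic chromosome axis and of the complex that joins paired axes. They were chosen by role, and partly because several of them had stood out by the fold changes and p-values of the study's own comparison, which are not used here. All 10 genes were found, each with 1 entry, among the 20633 transcript entries of the table, which carry 19338 distinct gene symbols. The table comes from nuclear RNA-seq of a mouse embryonic stem cell line, *Rybp* fl/fl;*Yaf2*-/-. In this line both *Rybp* alleles are flanked by loxP sites, *Yaf2* was removed beforehand by genome editing in a line grown from an isolated colony, and Cre recombinase is activated by 4-hydroxytamoxifen (OHT). The cells were grown on gelatin with serum and leukaemia inhibitory factor, and 3 libraries came from untreated cells (UNT) and 3 from cells given 800 nM OHT for 96 hours, all on the same *Yaf2*-/- background. The column analysed is the base mean, the authors' mean of normalized read pair counts over the 6 libraries, so the values below are levels of treated and untreated cells together. The change with OHT was not analysed here, since the other columns hold the authors' own comparison. As the base mean is 1 value for all libraries, no value below has an error from replicates and the depth of each library is unknown. The base mean also does not show how much of a level came from treated and how much from untreated cells. The level of a member may therefore come largely from either group.

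During meiotic prophase each chromosome folds into loops along a protein axis built on cohesin, the ring complex that holds sister chromatids together. The axes of homologous chromosomes are then joined along their length by the synaptonemal complex, a zipper-like structure with lateral elements on the axes, transverse filaments between them and a central element in the middle. These proteins are used by germ cells entering meiosis, and in embryonic stem cells many germline genes are kept at low levels by DNA methylation and by Polycomb complexes. One of these, the PRC1 complex that holds PCGF6, contains the DNA-binding proteins MGA and MAX, which recognise the E-box CACGTG, and E2F6, which recognises sites with the core TCCCGC. RYBP and YAF2 are alternative subunits of such variant PRC1 complexes.

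The promoters of the 10 genes were examined first, in the RefSeq windows of 300 bases on GRCm38.p6 that reach from 250 bases before each annotated start to 50 bases after it. Positions are counted from the start site, with negative numbers upstream of it, and matches on both strands were counted. The E-box CACGTG occurred in the windows of 5 of the 10 genes (*Sycp1*, *Sycp3*, *Syce2*, *Hormad1* and *Stag3*), whereas 7.15% of all 32851 promoter windows, 8.09% of the 27025 genes with a window and 9.97% of the 15271 of these genes that have an entry in the table held it. The E2F core TCCCGC occurred in 7 of the 10 genes (these 5, *Smc1b* and *Rec8*), against 22.1% of all genes with a window and 32.1% of those with an entry. Both motifs stood in 1 window in 5 of the members and in 2.32% of all genes, a share not counted among genes with an entry alone. The cyclic AMP response element TGACGTCA was found in 0 of the 10 genes, in 2.03% of all genes and in 2.82% of those with an entry. *Sycp2*, *Syce1* and *Hormad2* had no match to any of these motifs. These matches are descriptions of the letters and not of bound sites.

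Stretches upstream of the RefSeq start that hold these matches are shown for 7 genes, with the motif letters in capitals and everything else in lower case, because they hold the matches counted above. The 7 stretches do not all hold the same motif. Each is read 5′ to 3′ on the strand of its gene, from the RefSeq sequence of GRCm38.p6. *Hormad1* is shown from chr3:95559570-95559674 (plus strand) and *Sycp3* from chr10:88459428-88459561 (plus strand), and both hold 1 E2F core and 2 E-boxes. *Sycp1* is shown from chr3:102936158-102936206 (minus strand) with its E-box, and *Stag3* from chr5:138280327-138280356 (plus strand) with its E-box. *Smc1b* is shown from chr15:85131987-85132042 (minus strand), *Syce2* from chr8:84871984-84872013 (plus strand) and *Rec8* from chr14:55618116-55618145 (plus strand), each with an E2F core. The *Rec8* stretch precedes the RefSeq start but lies within the transcript of its entry in the table, which starts further upstream. The *Syce2* E-box, which precedes the second start of that gene, is not shown, as it also lies within the transcript of the entry. The palindrome CTCGCGAG, in capitals in *Sycp1* and *Smc1b*, was added after the sequences had been seen.
Hormad1: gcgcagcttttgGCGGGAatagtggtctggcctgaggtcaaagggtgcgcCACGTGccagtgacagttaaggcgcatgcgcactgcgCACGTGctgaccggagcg
Sycp3: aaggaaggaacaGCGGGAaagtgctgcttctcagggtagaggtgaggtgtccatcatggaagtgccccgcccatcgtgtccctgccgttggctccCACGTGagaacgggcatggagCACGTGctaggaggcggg
Sycp1: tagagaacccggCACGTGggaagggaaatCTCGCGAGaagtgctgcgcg
Stag3: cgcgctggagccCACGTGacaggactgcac
Smc1b: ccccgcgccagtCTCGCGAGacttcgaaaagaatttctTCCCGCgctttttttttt
Syce2: ggtgaccccgagTCCCGCacctacgcatta
Rec8: gtgtgcacctgaTCCCGCtggagggcgaca

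In *Hormad1* the E-boxes lay at -57 to -52 and -20 to -15 and the E2F core at -95 to -90, counted from the first of its 2 annotated starts. In *Sycp3* the E-boxes lay at -64 to -59 and -43 to -38, with the E2F core further upstream at -147 to -142. The order was thus the same in both promoters, with the E2F core outside the E-boxes. The *Sycp1* E-box lay at -94 to -89 and its E2F core just after the start, at 3 to 8. In *Stag3* the E-box was the most distant of all, at -170 to -165, and the E2F core spanned the start. *Syce2* has 2 annotated starts 147 bp apart. The window of the upstream start, which is that of the entry in the table, held an E2F core and no E-box, and the E-box lay before the downstream start. Counting the bases upstream of the start alone left the E-box in 5 genes and the E2F core in 5, since the E2F cores of *Sycp1* and *Stag3* fall at or after the start. Upstream bases held the E-box in 6.86% of all genes with a window and 8.49% of those with an entry. For the E2F core these shares were 18.8% and 27.4%.

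**Figure D1:**
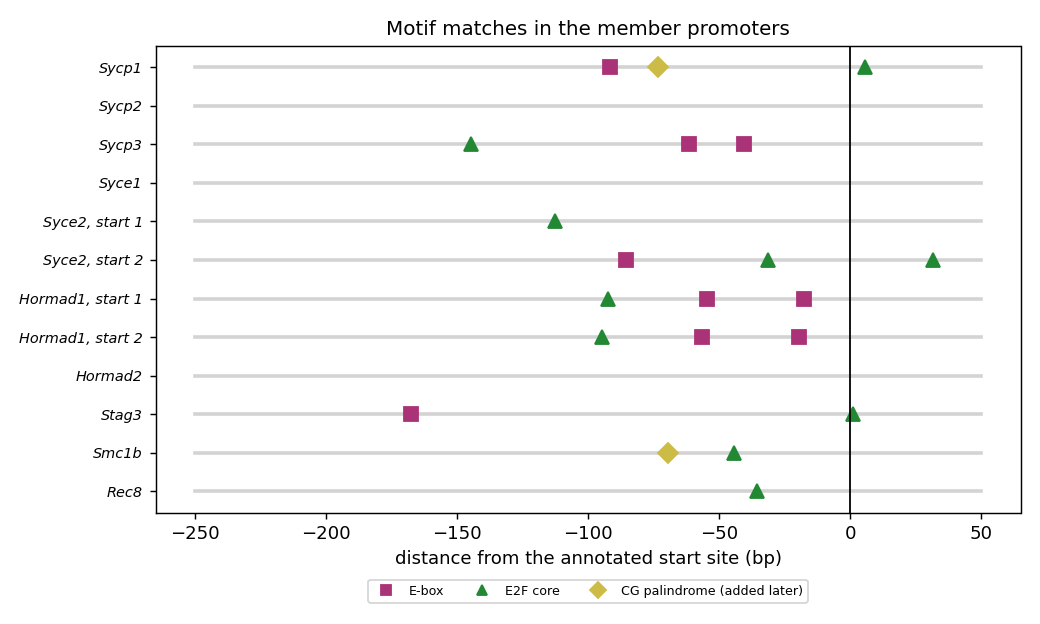
Positions of motif matches in the 12 RefSeq promoter windows of the 10 genes, with distance from the annotated start in bp on the horizontal axis and 1 line per window. Squares are E-boxes, triangles E2F cores and diamonds the CTCGCGAG palindrome added later, and *Sycp2*, *Syce1* and *Hormad2* have no mark.

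The CpG content of the member promoters was mostly above the median of all windows. All 12 windows (2 each for *Hormad1* and *Syce2*) held more CpG dinucleotides than the median window, which held 7. *Syce2* had the highest number, 33 before its downstream start (percentile 91.4 of all windows), and *Sycp2* the lowest, 10 (percentile 56.5). The CpG content of genes with an entry was not summarised apart from that of all windows. The ratio of observed to expected CpG was above the genome-wide median of 0.384 in 11 of the 12 windows. It was highest for *Smc1b* (1.08, percentile 97.5 of all windows) and *Stag3* (1.06, percentile 96.9), followed by *Syce2* at its downstream start (0.962) and *Sycp1* (0.874). *Sycp2* was the exception, with a ratio of 0.363 at percentile 48.2. *Hormad2*, at 0.534, and *Syce1*, at 0.625, were the next lowest, so that the 3 genes without an E-box or E2F core also had the 3 lowest ratios. Both motifs contain CpG, so the motif matches and the CpG ratio are not separate features.

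**Figure D2:**
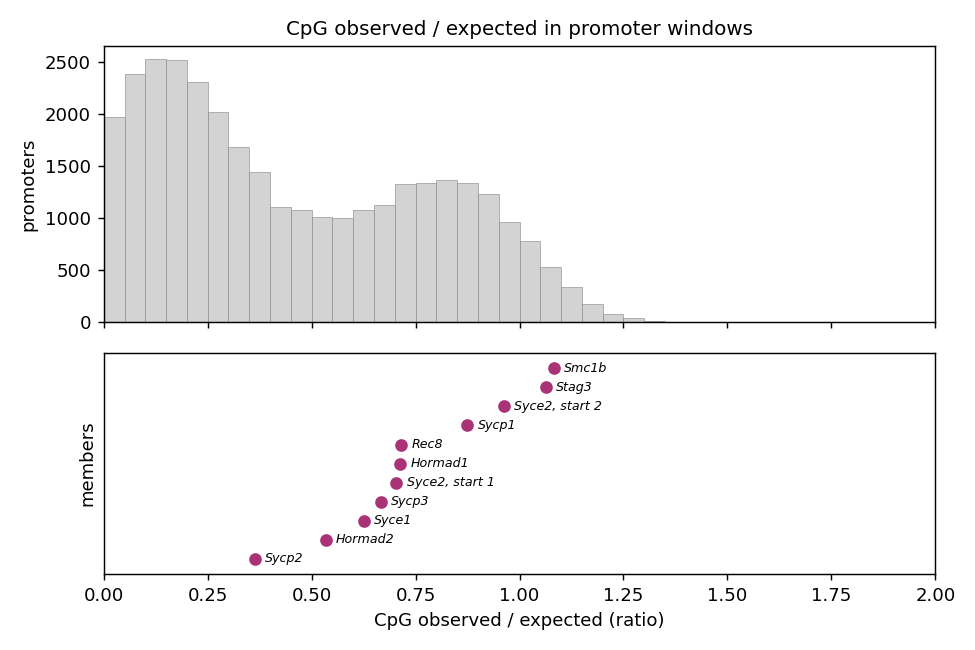
Histogram of the ratio of observed to expected CpG over all 32851 promoter windows (upper panel, number of windows) and the same ratio for each distinct member window (lower panel, 1 point per window). All member windows but that of *Sycp2*, at 0.363, lie above the median of 0.384, and *Smc1b* and *Stag3* lie near the right-hand end of the histogram.

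The base means of the 10 genes ran from 176 for *Sycp3* to 1596 for *Stag3*, a 9.06-fold range. Over all entries the median base mean was 236, with quartiles of 11.3 and 1142, and 1435 entries were listed at 0. None of the 10 genes was at 0. Of the 10, 8 were above the median of all entries and 9 lay between the quartiles. Their median base mean was 386, and the median of their percentiles among all entries was 56.7. Base means follow gene length (Spearman's rho with gene span was 0.35 across the 19039 named entries above 0, which share libraries and are not independent replicates), so base means and their ranks are given as listed, and a level is said to be above or below that of another gene on the scale per kilobase (kb). Spearman's rho of base mean with exonic length was 0.38 across 18871 entries above 0. Both of the following lengths were used. The first was the span of the RefSeq gene with its introns, since nuclear RNA is largely unspliced. The second was the exonic length of the matching GENCODE transcript. The authors aligned reads left unmapped a second time so that more intronic sequence would be mapped. Whether their counting covered introns is not given in the sources used here, so neither length is known to be the counted one.

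**Figure D3:**
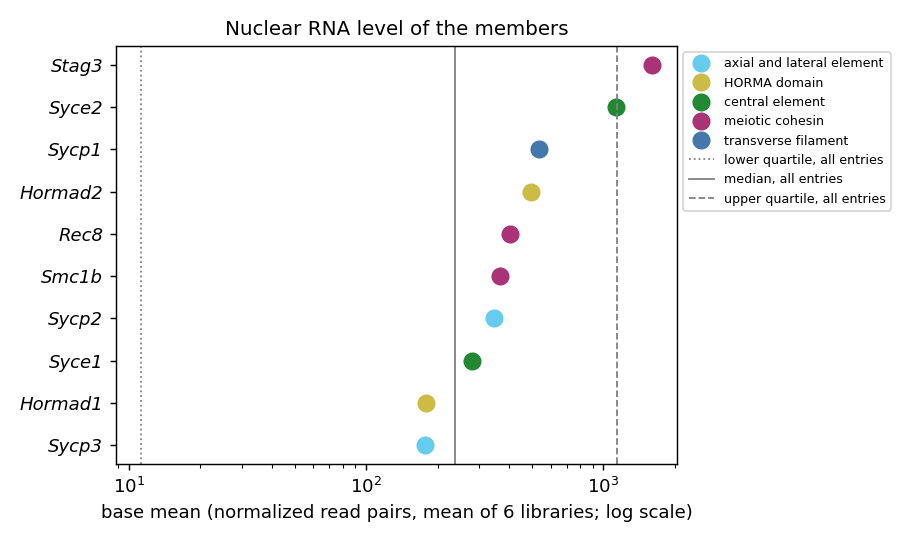
Base mean of each of the 10 genes on a log scale (normalized read pairs, mean over the 6 libraries), coloured by role, with the quartiles and median of all entries as vertical lines. *Stag3* stands to the right of the upper quartile, and *Sycp3* and *Hormad1* to the left of the median.

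*Sycp1* encodes the transverse filament protein that spans the gap between paired axes. It has 33 exons between 102818499 and 102936100 of chromosome 3 (minus strand, mm10). With a base mean of 535 (percentile 62.0) it ranked the third among the 10 genes, but over its span of 117.6 kb, the longest of the group, this was 4.55 per kb, the lowest level per kb of span. The exons make up 2.92% of that span. The gene illustrates how far the 2 scales can part, as the same base mean was 155.8 per kb of exonic length and sixth of the 10 there.

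*Sycp2* and *Sycp3* encode the axial element proteins that become the lateral elements of the synaptonemal complex. *Sycp2* has 44 exons on the minus strand of chromosome 2 (178345293 to 178407685), a base mean of 345 at percentile 55.2, and 5.52 per kb of span. Per kb of exonic length, at 60.3, it was the lowest of the group. *Sycp3* has 9 exons on the plus strand of chromosome 10 (88459569 to 88473235) and the lowest base mean of the group, 176 at percentile 46.4. Being short, it reached 12.9 per kb of span, above the median of 9.45 over all entries. The whole of *Sycp3* lies inside *Chpt1* on the opposite strand, whose base mean was 622 and whose level was 18.1 per kb of span. The libraries keep strand, but whether the authors' counting used it is not given in the sources used here, so reads of *Chpt1* in the *Sycp3* value were not tested.

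*Syce1* and *Syce2* encode central element proteins, and the levels of both per kb of span were above the median of all entries. *Syce1* has 13 exons on the minus strand of chromosome 7 (140777229 to 140787852), a base mean of 279 (percentile 52.2) and 26.3 per kb of span. *Syce2* has 5 exons on the plus strand of chromosome 8 (84872111 to 84887446). Its base mean was 1133 at percentile 74.9, the second highest of the group. Per kb it was the highest on both scales, with 73.9 per kb of span (percentile 84.4 of all entries on that scale) and 1219 per kb of exonic length (percentile 92.5). *Syce2* overlaps *Gcdh*, on the opposite strand, by 1054 bp, and the base mean of *Gcdh* was 836. *Farsa*, on the same strand with a gap of 2853 bp, had a base mean of 1592 and 129.6 per kb of span, and the part of either neighbour in the *Syce2* value was not tested.

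*Hormad1* and *Hormad2* encode HORMA domain proteins that mark unsynapsed axes and take part in checking that chromosomes have paired. *Hormad1* has 15 exons on the plus strand of chromosome 3 (95559678 to 95585798), a base mean of 179 at percentile 46.6 and 6.36 per kb of span. *Hormad2* has 11 exons on the minus strand of chromosome 11 (4346383 to 4441082) and a base mean of 497 at percentile 60.7. Per kb of span, however, *Hormad2* was slightly below *Hormad1*, at 5.21. The order of the pair was reversed again per kb of exonic length, with 369.8 for *Hormad2* and 124.8 for *Hormad1*. Exons make up 1.42% of the *Hormad2* transcript span, the smallest share in the group.

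*Stag3*, *Smc1b* and *Rec8* encode meiotic versions of cohesin subunits. Per kb of span *Rec8* and *Stag3* were near each other and *Smc1b* was far below both. *Stag3* has 34 exons on the plus strand of chromosome 5 (138280526 to 138312393). It had the highest base mean of the 10 genes, 1596 at percentile 80.7, and 40.0 per kb of span. *Rec8*, the kleisin that closes the meiotic ring, has 20 exons on the plus strand of chromosome 14 (55618037 to 55625395). In a span of 7.39 kb, the shortest of the group, its base mean of 405 (percentile 57.5) gave 54.8 per kb, second to *Syce2*. *Rec8* lies 4 bp from *Ipo4* on the opposite strand, whose level was 120.6 per kb of span, and the part of *Ipo4* in the *Rec8* value was not tested. *Smc1b* has 25 exons on the minus strand of chromosome 15 (85064689 to 85131964), a base mean of 366 (percentile 56.0) and 5.44 per kb of span.

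Per kb of span the 10 genes thus ran over a 16.2-fold range, from *Syce2* through *Rec8*, *Stag3*, *Syce1* and *Sycp3* to *Hormad1*, *Sycp2*, *Smc1b*, *Hormad2* and *Sycp1*. The last 5 lay between 4.55 and 6.36 per kb, all under the median of all entries, while the first 5 were above it. *Sycp2* (5.52), *Smc1b* (5.44) and *Hormad2* (5.21) lay closest together in this order, and without replicate values it cannot be said which neighbours differ beyond their spread. Per kb of exonic length the range was 20.2-fold and 8 of the 10 genes were above the median of 92.8, the exceptions being *Sycp2* and *Smc1b*. In all, the GENCODE transcripts of 5 of the genes overlap an annotated feature on the opposite strand, and 0 overlap one on their own strand. The feature is a gene with an entry for *Sycp3* and *Syce2* and a pseudogene for *Sycp1*, *Syce1* and *Smc1b*. Overlaps with the RefSeq spans, on which the levels per kb rest, were not counted. The RefSeq span of *Stag3* starts upstream of its transcript, at 138272514. *Gpc2*, on the opposite strand, lies 520 bp from the *Stag3* transcript, but whether it falls within the RefSeq span of *Stag3* was not examined. Its part in the *Stag3* value was not tested.

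The mitotic paralogs give a measure of these levels, which pool treated and untreated cells, since every dividing cell uses them. *Smc1a*, the counterpart of *Smc1b*, had a base mean of 3787 and 83.1 per kb of span, 15.3-fold the *Smc1b* level per kb of span and 8.92-fold per kb of exonic length. *Rad21*, the mitotic kleisin, had a base mean of 7841 and 253 per kb of span, 4.63-fold the *Rec8* level on that scale and 10.7-fold per kb of exonic length. *Stag3* was closest to its counterparts. Its level per kb of span was 0.941 times that of *Stag2* and 1.04 times that of *Stag1*, but per kb of exonic length it was 0.415 and 0.169 times, and with the span of the transcript in place of that of the gene it was 1.18 times that of *Stag2*, so that which of the genes is higher depends on the length used.

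**Figure D4:**
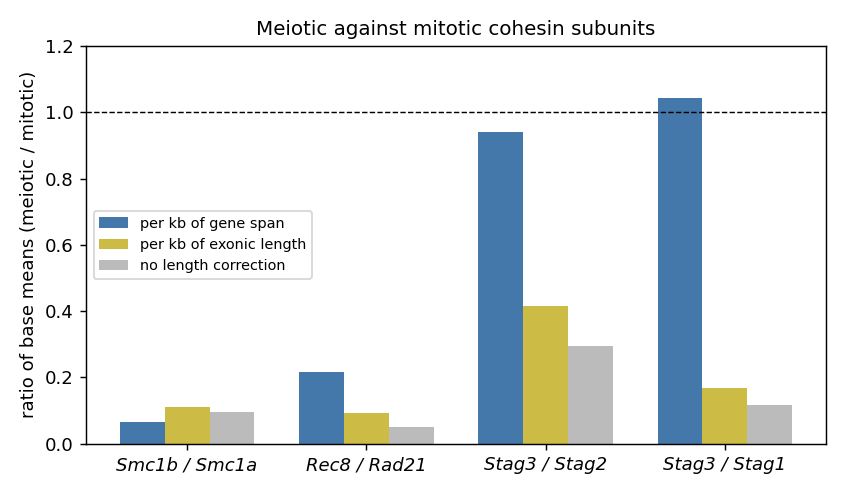
Ratio of the level of each meiotic cohesin subunit to that of its mitotic counterpart, per kb of gene span, per kb of exonic length and without length correction (bars, linear axis from 0, dashed line at equal levels). *Smc1b* and *Rec8* stay under 0.22 on all 3 scales, whereas *Stag3* moves between 0.115 and 1.04.

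Over the whole list of mitotic cohesin and its regulators, all 13 genes were above the median of all entries on both scales. Of the 10 meiotic genes, 7 had a level per kb of span below the lowest of that list, *Stag1* (38.4). The exceptions were *Syce2*, *Rec8* and *Stag3*, but per kb of exonic length, where *Esco1* was the lowest of the list at 441.7, 9 members lay below it and *Syce2* was the exception. Other genes of the same pathway were also listed. Of 16 such genes, 13 had an entry, with a median level of 3.67 per kb of span, against 9.64 for the members, and 4 above the median of all entries. The lowest per kb of span was *Fkbp6* at 0.122, and the highest was *Sgo2a*, a protector of centromeric cohesin, at 161.6. All 10 members were above the median of this list per kb of span and 9 of them, all but *Sycp2*, per kb of exonic length, but as the members were chosen with results of these data known, the difference is a description.

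*Rybp* itself had a base mean of 13983, at percentile 99.3, over both conditions together, and *Yaf2* 3.24, at percentile 17.8. The first exons of *Yaf2* were deleted in all 6 libraries, whereas the loss of *Rybp* after OHT cannot be checked from a mean over both groups. All 10 listed subunits of the PCGF6 complex had levels per kb of span above the median of all entries, between 35.2 for *E2f6* and 163 for *Tfdp1*. By base mean 9 were above the median, and *Ring1* was below it (190 against 236). Per kb of exonic length all 10 were above the median, *Ring1* only just (93.4 against 92.8).

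The labelled cell type was checked against markers. All 9 embryonic stem cell markers with an entry were above the median of all entries, from 66.1 per kb of span for *Esrrb* to 2183 for *Tdgf1*. Of the members, 1, *Syce2*, was above the lowest of them, on both scales. Of 7 later germ cell markers with an entry, 4 (*Acrv1*, *Pgk2*, *Tnp1* and *Prm1*) were listed at 0, and 2 were above the median of all entries per kb of span. These were *Ddx4*, an RNA helicase of the germ line, at 20.4 per kb, and *Dazl*, a germ cell RNA-binding protein, at 15.5 per kb. *Dazl* was below the median by base mean (220 against 236) and per kb of exonic length (74.1 against 92.8). The summed base mean of the list was 1383, of which *Ddx4* gave 1105. The part of germ cell-like cells in the members' levels was not tested. Of 5 fibroblast markers, 1, *Col1a1*, was above the median of all entries per kb of span, at 21.96, and the lowest was *Dcn* at 0.265. Per kb of exonic length 0 of the 5 were above the median, with *Col1a1* at 62.3 against 92.8. The summed base mean of this list was 625. Per kb of span 4 members were above every fibroblast marker and 6 were below *Col1a1*, and per kb of exonic length 9 were above every one. In bulk RNA a low level in all cells cannot be told apart from a higher level in a few cells, and this holds for each of the 10 genes. Nor can a level shared by treated and untreated cells be told apart here from a level carried mostly by either group.

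**Figure D5:**
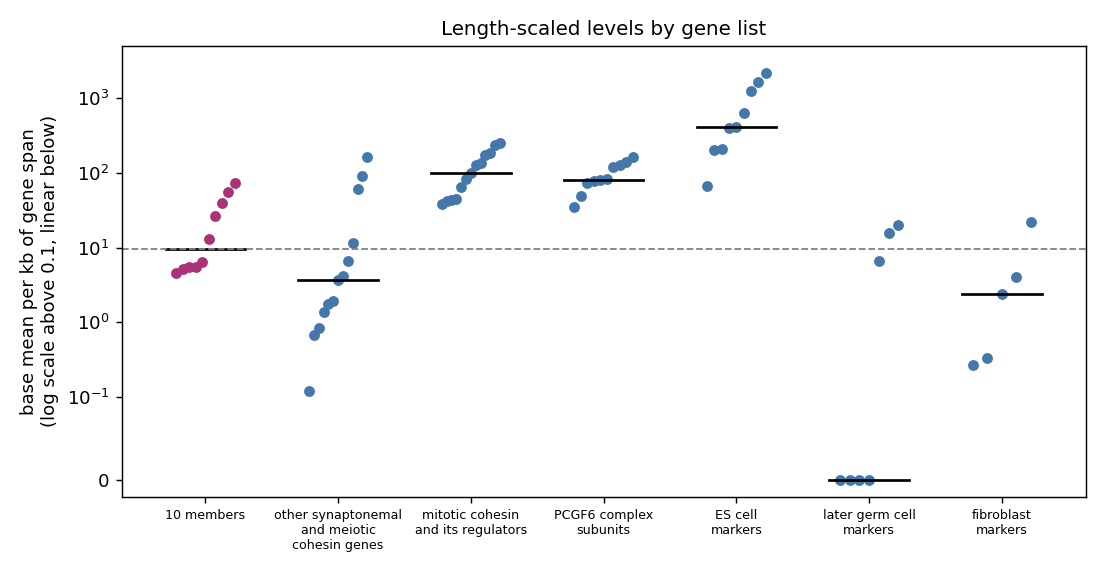
Base mean per kb of gene span for every gene of each list with an entry (points; log scale above 0.1, linear below), with the median of each list as a bar and the median of all entries, 9.45, as a dashed line. The 10 members straddle the dashed line, with 5 on each side, whereas all 13 mitotic cohesin genes lie above it.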

How the data were processed

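Nuclear RNA was sequenced by the authors from 6 libraries (3 UNT, 3 OHT) after rRNA depletion, with a strand-keeping kit and paired-end reads of 40 bp. The authors removed rRNA reads with bowtie2, used STAR and, for reads left unmapped, bowtie2 to align the rest to mm10, and ran DESeq2 on read pairs counted by their own script over a filtered refGene set. The deposited base mean is a signal, the normalized count averaged by the authors over all libraries. The other columns hold the authors' own comparison of OHT with UNT (fold change, standard error, statistic and p-values) and were not used. The planned fit on counts, of OHT against UNT without a block, was therefore not run, and no replicate was left out.

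Gene symbols came from RefSeq's table for GRCm38.p6 (20450 entries) and then from GENCODE vM21 (20560 in all), both on the coordinates of mm10. A percentile is the percentage of entries with a smaller value. Gene spans came from RefSeq, exon and transcript coordinates from GENCODE, and promoters from RefSeq. Promoter windows were found for all 10 genes. Python 3.11.15, numpy 2.4.6, pandas 2.3.3 and scipy 1.17.1 were used, and the ranking and motif search were tested on simulated data. The genes named are the 10 members, the mitotic counterparts of the cohesin subunits, the highest and lowest genes of each list (per kb of gene span where compared), *Rybp* and *Yaf2*. Overlapping and adjacent genes and a few further list genes were named after their values were seen. The members, lists and motifs were chosen with earlier results of these data known, so no test was made on them. The sequences of the proteins were not used here.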

Additional observations from a re-analysis of the deposited data

How the results depend on the processing

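No paired analysis was possible because the value used is a mean over all libraries, and for the same reason no replicate could be left out and no fit on counts was run. The median percentile of the 10 genes was 56.7 among all entries, 53.5 among entries above 0, 42.9 among those whose base mean reached 10, 49.8 per kb of gene span and 59.2 per kb of exonic length, and with 1 entry per gene it was 57.0. The median level of 9.64 per kb of gene span was 171 per kb of exonic length and 9.88 per kb of transcript span, a length added after seeing the data. With exonic length, no length correction and transcript span, the ratio of *Smc1b* to *Smc1a* (0.0655) was 0.112, 0.0967 and 0.0665, that of *Rec8* to *Rad21* (0.216) was 0.0936, 0.0517 and 0.207, and that of *Stag3* to *Stag2* (0.941) was 0.415, 0.293 and 1.18, or 1.04 with *Stag1* as the counterpart. These shifts follow from the lengths, as the base means are the same throughout. Motif counts stayed within 1.5 times, with 5 genes holding the E2F core upstream of the start and 5 holding the longer form TTCCCGC, which was added after seeing the sequences. Without depth or replicate values the precision of each level is unknown.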

Other observations

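The longer E2F form TTCCCGC, in which the core is preceded by a further T, was found in 5 of the 10 genes (*Sycp3*, *Syce2*, *Hormad1*, *Stag3* and *Smc1b*). It was found in 5.29% of all genes with a promoter window and in 7.77% of those with an entry. *Sycp1* and *Rec8* hold the core alone. The palindrome CTCGCGAG was found in *Sycp1*, at -77 to -70, and in *Smc1b*, at -73 to -66. It was found in 1.04% of all genes and in 1.58% of those with an entry. Both motifs were picked after the member promoters had been read, so their counts in these genes are descriptions.

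Of the 12 neighbouring or overlapping genes with a level, 4 were lower per kb of gene span than the member beside them and 8 were higher. The 4 lower ones were *Cyp2e1*, 2241 bp from *Syce1* on the opposite strand, at 0.0336 per kb (*Syce1* at 26.3), *Nr1h5*, 3557 bp from *Sycp1*, at 0.0434 (*Sycp1* at 4.55), *Ribc2*, 113 bp from *Smc1b* on the opposite strand, at 0.969 (*Smc1b* at 5.44), and *Ctss*, 3274 bp from *Hormad1*, at 0.302 (*Hormad1* at 6.36). The 8 higher ones were *Chpt1*, *Farsa*, *Gcdh* and *Ipo4*, described above, *Golph3l* beside *Hormad1* at 21.0, *Gpc2* beside *Stag3* at 45.2 (*Stag3* at 40.0), *Ppp1r3d* beside *Sycp2* at 6.26 (*Sycp2* at 5.52) and *Fam118a* beside *Smc1b* at 6.95.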
